A study of Mus musculus with 9 samples.

Results

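The genes described here are the nuclear genes for subunits of the respiratory chain and ATP synthase, in RNA from the cerebral cortex of mice. They were chosen by symbol alone, as rows beginning with Nduf, Uqcr, Cox4 to Cox8 or Atp5 in the pattern of the known subunit names, without Ndufa4l2 and Cox4i2. The rule found 78 of 32531 gene rows. Of these, 36 were complex I genes, 8 complex III, 16 complex IV and 15 ATP synthase genes. The remaining 3, Atp5s, Atp5sl and Cox7a2l, matched by their prefix but code for no subunit of the complex they are named after, and are described apart. All mice were untreated adults of the line ES3026, which carries the transgene Abcb1a-EGFP/Rpl10a. In it, regulatory sequence of Abcb1a, an efflux pump gene of brain endothelium, drives a ribosomal protein fused to green fluorescent protein. Translating ribosome affinity purification (TRAP) then pulls tagged ribosomes and their mRNA out of homogenised cortex with antibodies against that protein. There were 3 groups of 3 libraries: purified RNA (IP) extracted by the investigator with the initials ES, IP RNA extracted by JL, and unpurified input RNA extracted by JL. The labels give no other difference between the groups, no ages beyond adult, and no word on whether each library of a group is another mouse. P-values therefore measure only the spread between these libraries, which may be technical.

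Oxidative phosphorylation passes electrons from NADH through complex I, ubiquinone, complex III and cytochrome c to oxygen at complex IV. The protons pumped on the way drive ATP synthase. Each of these complexes joins a few subunits made inside the mitochondrion, whose genes were not analysed here, to many subunits coded in the nucleus. Complex I has catalytic core subunits and a larger set of small accessory ones. Neurons are known for a high demand on this pathway, and endothelial cells for drawing much of their ATP from glycolysis.

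The libraries held 31987470 to 46598478 gene counts. The fraction labelled as endothelial was checked with 15 endothelial and 12 neuronal markers, whose levels were summed as CPM (counts scaled to a common library size with TMM factors). The endothelial sum was 10262 to 10822 in the JL IPs, a lower 1140 to 1908 across the ES IPs and 64.5 to 75.9 across the inputs. The neuronal sum was 2101 to 2816 in the JL IPs, a higher 17815 to 19563 across the ES IPs and 16414 to 17213 across the inputs. Snap25, a synaptic protein gene, held most of the neuronal sum, at 11096 to 12629 CPM in the ES IPs and 9973 to 10819 across the inputs. Between ES IP and input, 4 of the 12 neuronal markers were called higher and 3, Syt1, Map2 and Gad2, lower. No marker of either list was at 0 in a whole group. Astrocyte, oligodendrocyte and microglia sums were also lower in the JL IPs than in the other 2 groups, and the mural sums of the JL IPs (21.9 to 43.5) overlapped those of the others. Reads assigned to several genes made up 10.3 to 11.3% of reads in the inputs and 2.04 to 2.54% in all IPs. The ribosomal RNA row Rn45s took 15.7 to 17.9% of gene counts in the JL IPs, 4.83 to 5.29% in the inputs and 12.03, 8.14 and 6.04% in ES IP 1, 2 and 3. Alignments to several places numbered 1.80 to 2.05 per gene count in the JL IPs, 0.953 to 1.43 in the ES IPs and 0.610 to 0.635 in the inputs. These levels and shares move with the comparisons below, and their part in the results was not tested. In such bulk samples, fewer cells of a type and less RNA per cell cannot be told apart. The ES libraries shared lane 6 and the JL libraries were in lanes 2 to 4, so the lane cannot be told apart from the investigator. The Y-linked gene Ddx3y had 2298 counts in JL IP 1 and 3249 in input 1, 0 or 1 in the other JL libraries, and 660 to 1037 in the ES IPs, so the JL libraries did not all come from mice of the same sex. The X-linked gene Xist had 51, 196 and 177 counts in JL IP 1, 2 and 3. It had 1, 986 and 1156 in input 1, 2 and 3. In ES IP 1, 2 and 3 it had 35, 181 and 68.

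ES IP replicate 1 stood apart from the other ES libraries in these genes. They took 1.53% of its gene counts, against 0.988% and 0.873% in ES IP 2 and 3, 0.864 to 0.934% across the JL IPs and 1.01 to 1.05% across the inputs. The excess was largest in genes with short coding sequence. Uqcr10, a small complex III subunit, stood at 348, 101 and 92.3 CPM in ES IP 1, 2 and 3, so that replicate 1 was 3.59 times the mean of the other 2. The corresponding ratio was 3.12 for Atp5e, the epsilon subunit of ATP synthase, and 3.04 for Ndufa2, an accessory subunit of complex I. By contrast, it was 1.04 for Atp5a1 and 1.01 for Atp5b, the alpha and beta subunits of the ATP synthase head, and 0.858 for Ndufs1, the largest core subunit of complex I by coding length. Of 75 tested genes of the set, 56 had a longest coding sequence of at most 600 bases, and all 56 were above the mean of the other ES IPs in replicate 1, with a median log2 difference of 0.90. The same difference had a median of 0.56 over all 1657 tested genes of that length class. Above 600 bases, 18 of 19 were above that mean, with a median of 0.38, where all 12274 tested genes of that class had -0.06. The limit of 600 bases was chosen after the values were seen. Most counts of called genes of the set that use the ES IPs are therefore given with and without this library. Other values use all ES IPs unless stated.

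**Figure D1:**
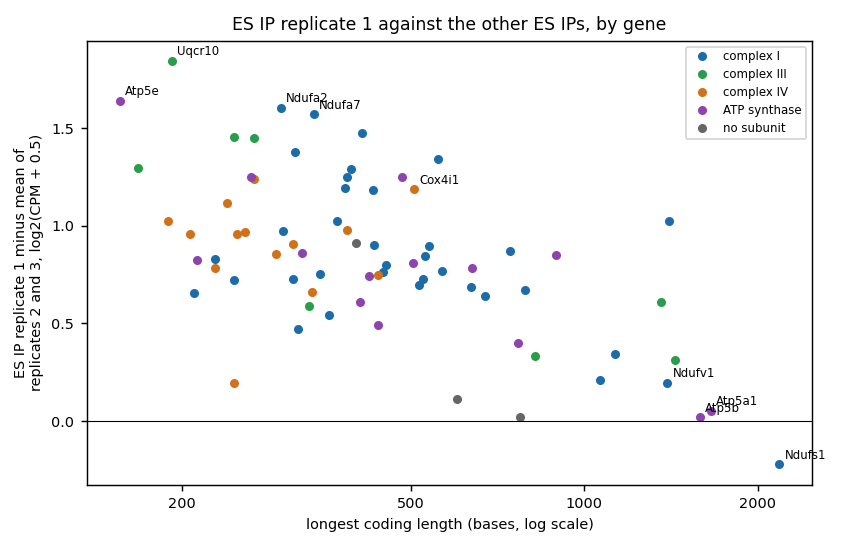
Each point is a gene reported here that was tested between the IPs, coloured by complex, with its longest coding length (bases, log scale) on the x axis and the level in ES IP replicate 1 minus the mean of replicates 2 and 3, on the log2(CPM + 0.5) scale, on the y axis. Short genes such as Uqcr10 and Atp5e lie highest, and Atp5a1, Atp5b and Ndufs1 lie near or below 0.

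Levels differed widely among the genes. Per kilobase of exon, Atp5b was highest in the inputs, at 575 ± 11.5 CPM per kilobase (mean ± SD, n = 3), ahead of Cox6a1 at 423 ± 25.0 and Cox8a at 288 ± 15.4, both small subunits of complex IV. In the JL IPs the order was led by Cox6a1 at 603 ± 47.3, then Cox6b1 at 369.8 ± 44.8, Cox8a at 346 ± 23.1 and Uqcr10 at 341 ± 23.9, and the last 3 did not differ beyond their spread. Atp5b followed there at 280.1 ± 27.7. In the ES IPs Atp5b stood at 446 ± 51.8, Atp5a1 at 387 ± 39.5 and Cox4i1, the largest nuclear subunit of complex IV, at 382 ± 198, with overlapping spreads. Exon length here joins the exons of all transcripts of a gene. It was 3130 bases for Atp5j and 1756 for Atp5e, whose transcripts with the longest coding sequence have 680 and 421. For Cox6b1 and Cox8a it was 708 and 619, against 618 and 550. These orders can thus depend on the length used, and were not repeated with another. Atp5b alone made up 26.4 ± 0.668% of the summed CPM of the set in the inputs, 12.2 ± 0.891% across the JL IPs and 17.0 ± 4.14% across the ES IPs. The sum over all 78 genes was 9090 to 9369 CPM for the inputs, 9311 to 10072 for the JL IPs, and 15406, 10427 and 8993 in ES IP 1, 2 and 3, so the ranges of all 3 groups overlapped. At the other end, Cox8c, known as a testis form of a complex IV subunit, had 0 counts in all 9 libraries, which allows up to 0.0644 to 0.0938 CPM per library by counting error alone.

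The transcription factors NRF1, the ETS factor GABP and YY1 are known regulators of nuclear respiratory genes. RefSeq promoter windows (GRCm38.p6, from 250 bases before to 50 after the start) were found for 66 of the 78 genes. The NRF1 letters GCGCANGCG, on either strand, were in 17 of the 66 (25.8%), against 6.47% of 27025 promoter windows in the table. The ETS core GGAAGT was in 21 (31.8%), against 24.1% of all, and the YY1 letters AANATGGCG in 9 (13.6%), against 2.51%. The NRF1 pattern nearly mirrors itself, so the same bases can match on both strands. It was in 8 of 32 complex I windows, 2 of 5 of complex III, 1 of 12 of complex IV and 6 of 14 of ATP synthase. To show such a match, the next lines give 30 bases around the one nearest the start, for a gene of each complex with the highest number of matches. For ATP synthase, Atp5k and Atp5g2 tied, and Atp5k was taken for its higher log2 fold change in JL IP against input. They run 5′ to 3′ in the direction of the gene, with the letters of the match in capitals.
Ndufb4 (chr16:37654371-37654400, minus strand): cctcatatccGCGCAGGCGcagatgtgcgc
Uqcrc1 (chr9:108936643-108936672, plus strand): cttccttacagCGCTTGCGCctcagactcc
Cox6a1 (chr5:115349056-115349085, minus strand): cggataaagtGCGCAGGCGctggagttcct
Atp5k (chr5:108434429-108434458, minus strand): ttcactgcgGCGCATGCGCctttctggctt
These matches describe the letters of the windows and not binding. The 4 genes did not move alike: Ndufb4, Cox6a1 and Atp5k were higher in the JL IPs than in the inputs and Uqcrc1 was not called.

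The first comparison was of JL IP with JL input, the tagged ribosome fraction with total RNA of cortex. Small accessory subunits of complexes I and III and of ATP synthase were mostly higher in the IPs. The larger subunits Ndufs1, Uqcrc2, Uqcrfs1, Atp5a1 and Atp5b were lower, by log2 fold changes from -0.42 ± 0.08 to -1.07 ± 0.09 (± SE). Of 76 tested genes, 42 were higher, 15 lower and 19 not called (edgeR quasi-likelihood test, Benjamini-Hochberg adjusted p under 0.05). Over all 17357 tested genes, 36.7% were called higher and 37.4% lower. The median log2 fold change was 0.32 for the set and -0.09 for all tested genes. With upper quartile scaling or library size alone the median of all genes moved to -0.34 or -0.35. The set then had 33 genes higher and 24 or 25 lower, with a median of 0.07 or 0.05. In 1 fit of all 9 libraries the counts were 25 and 11, and the calls lost there were those of Atp5c1, Atp5h, Atp5o, Cox6c, Cox7a2, Cox7b, Cox8a, Ndufa4, Ndufa5, Ndufa6, Ndufa11, Ndufa13, Ndufb2, Ndufb4, Ndufb6, Ndufb8, Ndufb9, Ndufb10, Ndufs4, Ndufv1 and Uqcrh. In all 6 fits that left out a library, 39 of the 42 and 13 of the 15 calls were kept.

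In complex I, 23 of 36 genes were higher and 5 lower. Of the 29 accessory genes, 22 were higher and 2 lower (median log2 fold change 0.52). Of the 7 core genes, 1 was higher and 3 lower, with a median of -0.14. With upper quartile scaling these counts were 16 and 5 for accessory and 1 and 6 for core genes. Ndufa7, an accessory subunit (chromosome 17, 33824572 to 33838317 in mm10), had the largest change. It stood at 203, 158 and 165 CPM in JL IP 1, 2 and 3 and at 36.2, 36.6 and 35.8 in input 1, 2 and 3 (log2 fold change 2.27 ± 0.10, adjusted p = 1.68e-07). All JL IPs were above all inputs. Ndufa10, an accessory subunit of the membrane arm (chromosome 1, 92439010 to 92473860), was lowest, at 70.0, 71.9 and 89.0 CPM against 182, 166 and 172 (-1.17 ± 0.10, adjusted p = 9.57e-06), with no overlap between groups.

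Among the core genes of complex I, the electron entry subunit Ndufs1 (chromosome 1, 63143596 to 63176833) stood at 30.7, 34.9 and 33.5 CPM in the JL IPs, against 72.6, 70.2 and 64.3 in the inputs (-1.07 ± 0.09, adjusted p = 7.71e-06). Every JL IP was below every input. The flavin-binding Ndufv1 was lower too (-0.29 ± 0.08, adjusted p = 0.0113), although its call ended without input 1. Ndufs7, which carries an iron-sulfur cluster, was the core gene that was higher (0.50 ± 0.09, adjusted p = 0.00112). Other accessory genes with large changes were Ndufa2 (1.48 ± 0.08), Ndufb7 (1.47 ± 0.08), Ndufs6, which holds a zinc site (1.33 ± 0.08), and Ndufa8 (1.28 ± 0.07). The other 16 higher accessory genes, not counting Ndufa4, lay between 0.30 ± 0.09 for Ndufs4 and 1.08 ± 0.07 for Ndufb11, and the calls of Ndufs4 and Ndufb6 ended without input 2. Ndufa9, Ndufa12, Ndufb5, Ndufc2 and Ndufs5 were not called, from -0.18 ± 0.08 for Ndufb5 to 0.47 ± 0.28 for Ndufs5. Ndufb9, the other lower accessory gene, changed by -0.36 ± 0.08. Ndufa4, named for complex I and now assigned to complex IV, was higher (0.28 ± 0.07, adjusted p = 0.00467), but not with upper quartile scaling or library size alone.

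In complex III, all 5 small subunits, Uqcrb, Uqcr11, Uqcrq, Uqcr10 and Uqcrh, were higher in the JL IPs (median log2 fold change 1.26). Of the 3 large ones, Uqcrc2 and the Rieske iron-sulfur protein Uqcrfs1 were lower and Uqcrc1 was not called. Uqcrb, which binds ubiquinone (chromosome 13, 66900617 to 66905378), stood at 15.5, 17.0 and 13.7 CPM in the JL IPs, against 5.56, 4.66 and 5.02 in the inputs (1.60 ± 0.16, adjusted p = 2.68e-05). Its lowest IP was above its highest input. Uqcrc2, a core protein that scaffolds the complex (chromosome 7, 120635176 to 120659524), stood at 114, 125 and 111 against 169, 160.3 and 158 CPM (-0.48 ± 0.07, adjusted p = 0.000386), again with no overlap. Uqcrfs1 changed by -0.42 ± 0.08, adjusted p = 0.00182. Uqcrc1 had a log2 fold change of -0.14 ± 0.11, adjusted p = 0.286, and was called lower with upper quartile scaling and with library size alone.

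Complex IV had the widest range. Of 14 tested genes, 7 were higher, 2 lower and 5 not called. Both extremes were minor paralogues of subunits that have a common form. Cox6b2, known as the testis form of subunit 6b (chromosome 7, 4751792 to 4753094), stood at 10.5, 7.01 and 10.8 CPM in the JL IPs, against 1.9999, 1.80 and 1.64 in the inputs (2.38 ± 0.25, adjusted p = 3.37e-05). Cox6a2, known as the heart and muscle form of subunit 6a (chromosome 7, 128205435 to 128206387), stood at 0.845, 0.827 and 0.561 CPM against 4.69, 5.93 and 5.42 (-2.84 ± 0.31, adjusted p = 3.89e-05). In neither gene did the groups overlap. Their common partners Cox6b1 (0.85 ± 0.09) and Cox6a1 (0.51 ± 0.08) were both higher, as were Cox5a, Cox7a2, Cox6c and Cox8a, from 0.26 ± 0.08 to 0.60 ± 0.12. Cox8a was not called without input 1 or input 2, nor with upper quartile scaling or library size alone, and these scalings also ended the call of Cox6c. Cox7b was lower by a small margin (-0.17 ± 0.06, adjusted p = 0.0366), a call that ended in 5 of the 6 fits that left out a library. Cox4i1 (-0.05 ± 0.08) and the zinc-binding Cox5b (0.11 ± 0.08) were not called, the first being called lower with upper quartile scaling or library size alone.

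Of the 15 ATP synthase genes, 7 were higher and 5 lower. In the F1 head and central stalk, the alpha, beta and gamma subunits were lower and the small delta and epsilon subunits higher. Atp5b (chromosome 10, 128083273 to 128090391), the catalytic beta subunit, stood at 1199, 1064 and 1297 CPM in the JL IPs, against 2411, 2407 and 2493 in the inputs (-1.04 ± 0.08, adjusted p = 5.20e-06). All JL IPs were below all inputs. Atp5a1 (chromosome 18, 77773729 to 77782869) stood at 375, 366 and 375 against 620.5, 606 and 582 CPM (-0.70 ± 0.06, adjusted p = 9.84e-06), and Atp5c1, the gamma subunit, changed by -0.24 ± 0.07. Atp5e (chromosome 2, 174461072 to 174464105), the epsilon subunit, was at 314, 259 and 261 CPM in the IPs and 88.3, 80.1 and 76.1 in the inputs (1.77 ± 0.10, adjusted p = 6.09e-07), with no overlap, and Atp5d, the delta subunit, changed by 0.59 ± 0.09.

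In the peripheral stalk, which holds the head still, Atp5j (1.16 ± 0.07), Atp5h (0.54 ± 0.08) and Atp5o (0.31 ± 0.07) were higher and Atp5f1 lower (-0.44 ± 0.07). Atp5o was not called with upper quartile scaling or library size alone. The small membrane subunits Atp5j2 (1.21 ± 0.08) and Atp5k (0.92 ± 0.09) were higher. Of the 3 genes that code for the identical rotor subunit c, Atp5g1 (chromosome 11, 96068852 to 96075670) was lower, at 11.1, 7.58 and 9.04 CPM against 25.3, 26.2 and 28.9 (-1.54 ± 0.16, adjusted p = 3.28e-05). Atp5g3, the gene of the 3 with the most counts, was not called (0.03 ± 0.06), but was called lower with upper quartile scaling or library size alone.

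**Figure D2:**
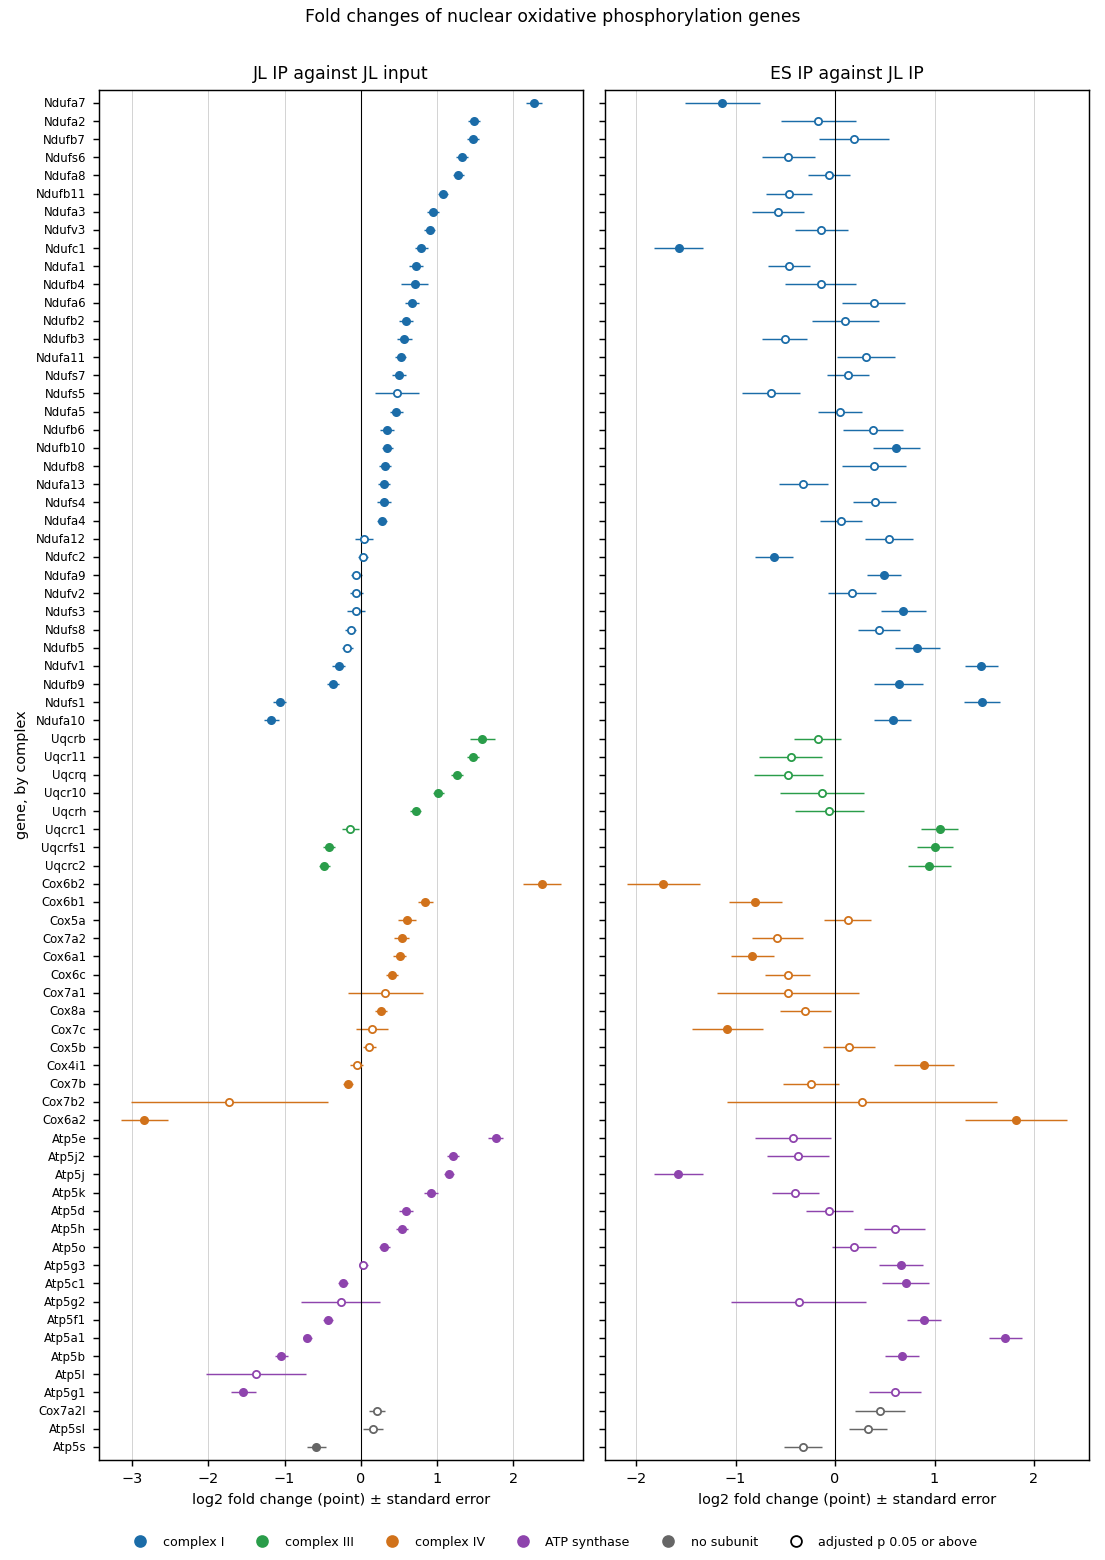
Log2 fold changes (points) with standard errors (bars) from edgeR for the reported genes tested in JL IP against JL input (left) and, in the same order, in ES IP against JL IP (right), coloured by complex, with open points where the adjusted p was 0.05 or above. On the left each complex runs from small subunits that were higher, such as Ndufa7, Uqcrb and Atp5e, to members that were lower, such as Ndufs1, Uqcrc2 and Atp5b, and on the right the large subunits are mostly above 0.

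Next, the IPs of the 2 investigators were compared, ES against JL. This comparison shares the JL IPs with the first, so the 2 are not independent. Larger subunits such as Ndufs1, Ndufv1, Uqcrc1 and Atp5a1 were higher in the ES IPs, and a few small subunits, such as Ndufc1, Atp5j and Cox6b2, were lower. Of 75 tested genes, 19 were higher, 8 lower and 48 not called, with a median log2 fold change of 0.10. Over all 16212 tested genes, 29.7% were called higher and 28.2% lower, with a median of 0.03. All 12 neuronal markers were higher in the ES IPs and all 15 endothelial markers lower. Without ES replicate 1 the counts of the set were 15 higher and 33 lower and the median -0.27. Of all 16616 genes tested in that fit, 4910 were higher and 4994 lower. The number of lower genes was 4 without ES replicate 2 or 3 and 5 without JL replicate 1. The number of higher genes was 10 without JL replicate 2 and 12 without JL replicate 3. Across the 6 fits that left out a library, 13 of the 27 calls were kept, among them Atp5a1, Atp5f1, Ndufb5, Ndufs1, Ndufv1, Uqcrc1, Uqcrc2 and Uqcrfs1 as higher, and Atp5j, Cox6a1, Cox6b2 and Ndufc1 as lower.

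In complex I, 4 of the 7 core genes were higher and none lower (median log2 fold change 0.69). Without ES replicate 1, 3 core genes were higher, with a median of 0.42, and the call of Ndufs3 ended. Of the 29 accessory genes, 5 were higher and 3 lower, and without ES replicate 1, 3 and 16. Ndufs1 stood at 82.3, 111 and 82.9 CPM in ES IP 1, 2 and 3 and at 30.7, 34.9 and 33.5 in the JL IPs (1.48 ± 0.18, adjusted p = 3.91e-05). The ES IPs were also all above the inputs, at 72.6, 70.2 and 64.3, although that difference was not called (0.33 ± 0.14, adjusted p = 0.0825). Ndufv1 showed the same order more widely, with 189, 186 and 146 CPM in the ES IPs, then 66.0, 60.8 and 61.6 in the JL IPs, against 82.5, 75.9 and 71.4 in the inputs (1.47 ± 0.17, adjusted p = 2.38e-05 against the JL IPs). Ndufc1, a short subunit of the membrane arm (chromosome 3, 51404677 to 51408988), was at 38.8, 22.8 and 20.5 CPM in the ES IPs, against 87.7, 74.7 and 82.5 in the JL IPs (-1.57 ± 0.25, adjusted p = 0.000236). It was lower in the ES IPs than in the inputs as well, which stood at 45.9, 47.0 and 48.2, a call that ended without ES replicate 2. Ndufa7 (-1.14 ± 0.38) and Ndufc2 (-0.61 ± 0.19) were the other lower accessory genes, both with calls that ended without ES replicate 2 or 3 or JL replicate 1. The 5 higher ones, Ndufa9, Ndufa10, Ndufb5, Ndufb9 and Ndufb10, lay between 0.49 ± 0.17 and 0.83 ± 0.22, and only Ndufb5 kept its call in each fit that left out a library.

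All 3 large subunits of complex III were higher in the ES IPs, also without ES replicate 1. Uqcrc1 (chromosome 9, 108936633 to 108949623) stood at 154, 139.7 and 109 CPM in the ES IPs, against 73.2, 55.9 and 65.1 in the JL IPs (1.05 ± 0.19, adjusted p = 0.000562), with no overlap. Uqcrc2 changed by 0.95 ± 0.22 and Uqcrfs1 by 1.01 ± 0.18. None of the 5 small subunits was called with all libraries, and 4 of them were lower without ES replicate 1, with a median log2 fold change of -1.03. Uqcrq (chromosome 11, 53427922 to 53430831) shows this: it stood at 271, 107 and 90.6 CPM in ES IP 1, 2 and 3 and at 238, 204 and 211 in the JL IPs (-0.47 ± 0.35, adjusted p = 0.269). ES replicate 1 was above all JL IPs, and replicates 2 and 3 were below them.

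In complex IV, 2 of 14 tested genes rose in ES IP relative to JL IP and 4 fell (median log2 fold change -0.39). Without ES replicate 1, 1 rose and 8 fell, with a median of -0.76. Cox6a2 stood at 3.96, 2.12 and 1.81 CPM in the ES IPs, between the JL IPs and the inputs (1.82 ± 0.51, adjusted p = 0.0102 against the JL IPs). Its call ended without ES replicate 1. Cox6b2 stood at 4.35, 2.28 and 1.91 CPM in the ES IPs, below all JL IPs (-1.73 ± 0.37, adjusted p = 0.00194). The common forms Cox6a1 (-0.83 ± 0.21) and Cox6b1 (-0.80 ± 0.26) were lower as well, the second with a call that ended without ES replicate 2 or 3 or JL replicate 1 or 3. Cox4i1 was higher with all libraries (0.90 ± 0.30, adjusted p = 0.0243), from 945, 436 and 395 CPM against 349.8, 311 and 299. ES replicate 1 was far above replicates 2 and 3. The log2 fold change of Cox4i1 was 0.38 without it, and the call ended without JL replicate 2 or 3. The fourth lower gene, Cox7c (-1.08 ± 0.36), lost its call without ES replicate 2 or 3 or JL replicate 1.

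In ATP synthase, 5 of 14 tested genes rose in ES IP relative to JL IP and 1 fell, and without ES replicate 1, 5 and 5. Atp5a1 stood at 1240.3, 1323 and 1080.0 CPM across the ES IPs, at 375, 366 and 375 in the JL IPs, against 620.5, 606 and 582 in the inputs. Its log2 fold change was 1.71 ± 0.17, adjusted p = 7.73e-06, against the JL IPs, and 0.93 ± 0.14, adjusted p = 0.000825, against the inputs. The ES IPs were above both other groups in every library. Atp5b did not follow it. It stood at 1899.8, 2106 and 1667 CPM in the ES IPs, between the JL IPs and the inputs, with log2 fold changes of 0.67 ± 0.17 and -0.45 ± 0.15. The first call ended without JL replicate 2, and the second without any one of the inputs. Atp5j (chromosome 16, 84827866 to 84835625) was the lower gene, at 224, 134 and 114 CPM in the ES IPs, against 484, 476 and 451 in the JL IPs (-1.58 ± 0.25, adjusted p = 0.000232).

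**Figure D3:**
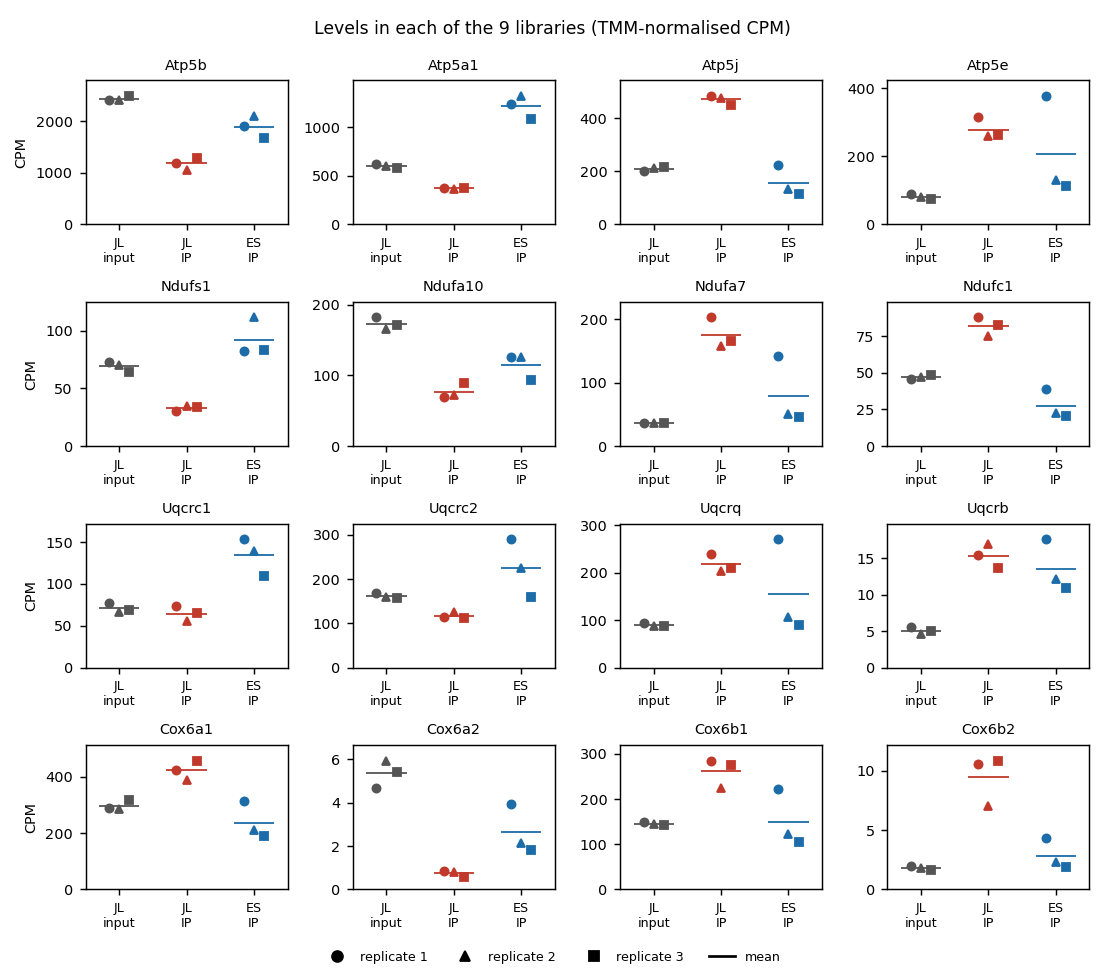
Levels of 16 genes in each library, as TMM-normalised CPM on linear axes from 0, with a mark for each replicate and a line at the mean of each group. In Atp5e, Ndufa7 and Uqcrq ES IP replicate 1 lies far above replicates 2 and 3, while in Atp5a1, Ndufs1 and Uqcrc1 all 3 ES IPs lie above all JL IPs.

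The ES IPs were also set against the JL inputs, which share their libraries with the first comparison. Of 77 tested genes, 21 were higher, 8 lower and 48 not called, where 26.9% of all 17477 tested genes were called higher and 25.3% lower. The median log2 fold change was 0.44 for the set and 0.00 for all tested genes. Without ES replicate 1 these medians were 0.10 and -0.02. With upper quartile scaling the counts were 8 and 10, and with library size alone 9 and 8, where the median of all genes moved to -0.15 and -0.11. limma-voom called 15 and 8. Leaving out any one input gave 6 or 7 higher and 6 lower genes, and leaving out ES replicate 1 gave 29 higher and 21 lower. Calls over all genes moved too. Without an input, 3453 to 3481 of 17752 to 17829 tested genes were higher and 3254 to 3352 lower. Without ES replicate 1, 5819 of 17944 were higher and 5513 lower. The 6 higher calls kept in all fits that left out a library were Atp5a1, Ndufa8, Ndufb7, Ndufv1, Uqcrb and Uqcrc1. Ndufb7, an accessory gene of complex I, had the largest log2 fold change (1.58 ± 0.39, adjusted p = 0.00943, and 0.90 without ES replicate 1), with 181, 66.5 and 63.1 CPM in the ES IPs, against 34.6, 33.5 and 30.3 in the inputs. Lower calls kept throughout were Atp5g1 (-1.02 ± 0.20), Ndufa10 (-0.68 ± 0.15) and Atp5s (-0.99 ± 0.11).

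Several subunits have alternative genes, and their shares within a set can be read inside each library. Shares were taken of counts per kilobase of exon, and with 3 libraries against 3 an exact permutation test cannot go below p = 0.1, so no test is given. Cox6a2 made up 1.83 ± 0.244% of Cox6a1 and Cox6a2 in the inputs, 0.184 ± 0.0496% across the JL IPs and 1.10 ± 0.161% across the ES IPs (mean ± SD, n = 3). Cox6b2 made up 0.791 ± 0.0605% of its pair in the inputs, 2.24 ± 0.261% across the JL IPs and 1.19 ± 0.0434% across the ES IPs. In both pairs the 3 groups did not overlap, and the ES IPs lay between the other 2. Replicate 1 of the ES IPs stood near replicates 2 and 3 in the Cox6b2 share, unlike in the level.

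The c subunit gene Atp5g1 made up 5.31 ± 0.445% of its set of 3 in the inputs, 1.85 ± 0.326% across the JL IPs and 1.79 ± 0.0987% across the ES IPs. Both IP groups were below the inputs and overlapped each other. Per coding length in place of exon length, the input share was 11.6 ± 0.906% and the IP shares 4.21 ± 0.728% and 4.08 ± 0.220%. Atp5g3 held the rest but for under 1% of Atp5g2. All 50-base windows of Atp5g2 and 66.0% of those of Atp5g1 were shared with other genes, against 0% for Atp5g3. The counts of Atp5g1 and Atp5g2, and so the shares within this set, are uncertain. Cox7a1, the muscle form of subunit 7a, was a small share without a difference beyond the spread, at 1.42 ± 0.270%, 1.26 ± 0.669% and 1.17 ± 0.504%. Cox7b2, a testis form, and Cox8b, a muscle form, stayed below 1 CPM in all libraries. Cox8b passed the filter on low counts only in the third comparison, where it was not called.

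**Figure D4:**
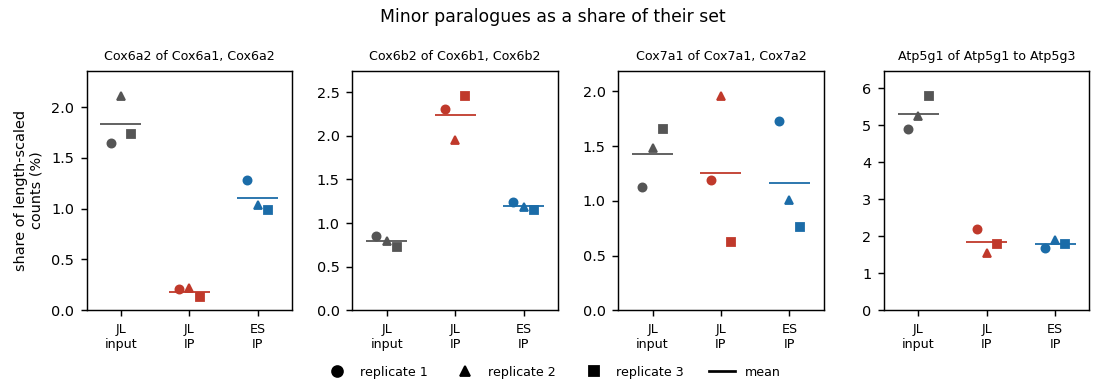
Share of a minor paralogue in its set, in percent of counts per kilobase of exon, for each library, with the mean of each group as a line. The Cox6a2 share is lowest and the Cox6b2 share highest in the JL IPs, the Atp5g1 share is lower in both IP groups than in the inputs, and the Cox7a1 shares overlap.

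The division into small and large subunits was also a division by length, which the choice of genes did not use. Across the 76 genes, log2 fold change of JL IP against input and log2 coding length had a Pearson correlation of -0.42 (Spearman -0.51), against -0.11 over all 14360 tested genes with a coding length. For ES IP against JL IP, with all libraries, the correlation was 0.67 (Spearman 0.72) across 75 genes and 0.09 over all. It was not taken without ES replicate 1. With exon length in place of coding length the values were -0.27 and 0.39. These correlations are across genes, which share libraries and are not independent, so no p is given. Of the 57 tested genes with at most 600 coding bases, 39 were higher and 5 lower in the JL IPs than in the inputs (median log2 fold change 0.52). All 1726 tested genes of that class had a median of 0.61. Of the 19 longer ones, 3 were higher and 10 lower, with a median of -0.24, where all 12634 longer genes had 0.00. Calls were not counted over all genes of each class. Of all tested genes of any length, 36.7% were called higher and 37.4% lower in this comparison. Against the JL IPs, the ES IPs had 13 of the 19 longer genes higher and none lower, and without ES replicate 1, 12 higher and 1 lower. Of the 56 shorter ones, 6 were higher and 8 lower, and without ES replicate 1, 3 and 32, with a median of -0.71. With all libraries, the medians of the set in that comparison were -0.17 (shorter) and 0.69 (longer). Those of all tested genes of the 2 classes were -0.37 and 0.07. Such class medians over all genes were not taken without ES replicate 1. Of all tested genes of any length, 29.7% were called higher and 28.2% lower in that comparison. Without ES replicate 1, 4910 of 16616 were higher and 4994 lower. The marker sums given above move with the same comparisons, and their part in the relation to length was not tested.

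**Figure D5:**
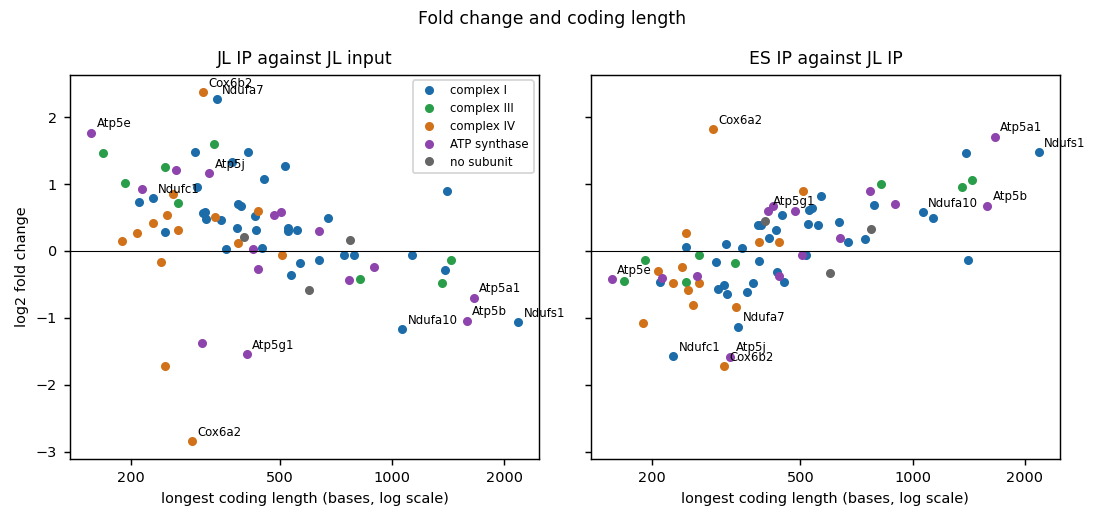
Log2 fold change (y axis) against longest coding length in bases (log scale, x axis) for each tested gene reported here, coloured by complex, in JL IP against JL input (left) and ES IP against JL IP (right). On the left most short genes lie above 0 and most long ones below, with Cox6a2 and Atp5g1 as short genes that were lower, and on the right most long genes lie above 0.

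Many of these genes have processed copies in the genome, and the files set alignments that fit several places aside from the gene counts. Against the GENCODE M21 transcripts, 33 of the 78 genes had no 50-base window in common with another gene, 39 shared up to 50% of their windows, and 6 shared more than 50%. These 6 were Atp5g2, Atp5l, Atp5h, Atp5g1, Ndufa12 and Cox7c. Windows shared with a gene that overlaps at the same place were counted as well, and these are no processed copies. Ndufb6, for example, shared 34.1% of its windows with 1 gene that is no pseudogene, and it overlaps Smim27. Low levels of Atp5l, at 0.0570 to 0.365 CPM, and of Atp5g2, at 0.365 to 0.980, go with shared shares of 84.8% and 100% and cannot be read as low expression. The counts of the other 4 are likewise uncertain. Genes below 50% can be affected too, such as Uqcrb, which shared 43.4% of its windows with 5 genes, 4 of them pseudogenes.

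Exons of 28 genes overlapped another gene. Atp5j overlaps Gabpa, a subunit of the factor GABP, head to head on the opposite strand over 12.7% of its exon bases. Gabpa, chosen for mention after its values were seen, stood at 139, 159 and 142 CPM in the JL IPs, then 57.0, 58.5 and 60.0 in the inputs and 42.0, 48.2 and 49.4 in the ES IPs. Its log2 fold changes were 1.32 ± 0.08 in the first comparison and -1.66 ± 0.16 in the second, beside 1.16 ± 0.07 and -1.58 ± 0.25 for Atp5j. Whether the counts use strand is not given in the sources used here. Reads assigned to several genes were set aside from the gene counts, so the overlap is not shown to pass reads of 1 gene to the other. Its part in the 2 sets of fold changes was not tested.

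Of the 3 genes matched only by prefix, Atp5s, known as coupling factor B of ATP synthase, was lower in the JL IPs than in the inputs (-0.58 ± 0.12, adjusted p = 0.00232). Atp5sl, now named Dmac2 and known for complex I assembly, was not called (0.16 ± 0.14), nor was Cox7a2l, a factor that joins complexes III and IV into supercomplexes (0.21 ± 0.11). None of the 3 was called between the IPs.

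Other genes of the pathway were read from lists for the JL IPs against the inputs, where the background is again 36.7% higher and 37.4% lower. Succinate dehydrogenase (complex II) had 2 of 4 genes higher and 1 lower. Its membrane anchor Sdhc was highest (0.78 ± 0.07) and its flavoprotein Sdha lowest (-0.29 ± 0.07). Among 8 electron carriers and remaining subunits, 4 were higher and 2 lower. Etfb, which carries electrons from fatty acid oxidation, stood at 135, 119.8 and 121 CPM in the JL IPs, against 31.4, 28.4 and 32.2 in the inputs (2.03 ± 0.09, adjusted p = 1.20e-07). Cytochrome c, Cycs, stood at 1.96, 3.62 and 3.40 against 9.46, 9.07 and 9.16 CPM (-1.62 ± 0.26, adjusted p = 0.000463). All JL IPs were above the inputs for Etfb and below them for Cycs.

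Assembly factors place subunits and cofactors in each complex. For complex IV, 10 of 18 tested factors were higher, 2 lower, from Pet100 (1.68 ± 0.15) to the copper chaperone Cox11 (-0.66 ± 0.13), with a median log2 fold change of 0.54. For complex I, 2 of 13 were higher and 4 lower, from the iron-sulfur carrier Nubpl (1.88 ± 0.23) to Ndufaf5 (-1.11 ± 0.10), with a median of -0.12. For complex III, 2 of 6 were higher and 3 lower, from Uqcc3 (1.67 ± 0.12) to Ttc19 (-1.71 ± 0.07). For ATP synthase none of 4 was called, from Atpaf2 (0.32 ± 0.15) to Atpaf1 (-0.24 ± 0.17). Differences between these lists were not tested.

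Of 14 regulators and genes of mitochondrial DNA expression, 7 rose from input to JL IP and 4 fell. Gabpb1, the partner of Gabpa, stood at 68.1, 82.5 and 60.9 CPM in the JL IPs, then 20.0, 20.3 and 21.0 in the inputs and 29.1, 23.0 and 27.6 in the ES IPs (1.78 ± 0.12, adjusted p = 1.99e-06 for JL IP against input). Ppargc1a, the coactivator that drives mitochondrial biogenesis, stood at 33.0, 34.1 and 52.7 CPM in the JL IPs, then 199, 211 and 203 in the inputs and 103, 164 and 150.3 in the ES IPs (-2.36 ± 0.17, adjusted p = 2.89e-06). The JL IPs were thus highest of the 3 groups for Gabpb1 and lowest for Ppargc1a, with no overlap in either gene.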

How the data were processed

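RNA was measured by TRAP-seq in 9 mouse cortex libraries. The authors deposited read counts per gene for each library, made with STAR 2.0.0e on mm10 and HTSeq per the submitters' processing notes. Their annotation, strand setting and filters are not stated in the sources used here. Rows that name no gene stayed out of library sizes; they held reads assigned to no gene, to several genes (given as a share of gene, no-gene and several-gene reads together) or to several places. All columns were mapped to a sample. The 3 comparisons were fitted over all genes with edgeR 4.0.16 (filterByExpr, TMM factors, quasi-likelihood F-test) in R 4.3.3, on the libraries of the 2 groups compared, adjusting p-values across every tested gene (Benjamini-Hochberg, threshold 0.05). Standard errors are |log2 fold change| over the root of F. CPM used TMM factors over all 9 libraries. The fit was also run on counts simulated from its own model. These hold no library that departs as ES IP replicate 1 does, so the run cannot speak to that library. DESeq2 1.42.0 and limma 3.58.1 served as alternatives. Lengths, windows and coordinates came from GENCODE M21. Given library by library are the genes with the highest and lowest log2 fold change of each complex in JL IP against JL input and in ES IP against JL IP. The same holds for the lists of electron carriers and of regulators in the first comparison. For the other lists these genes are given by fold change alone. Paralogue shares are given as group means. Other genes were named for their role or after their values were seen. The genes and lists were chosen with earlier results of these data known. Depth limits the precision of genes under 1 CPM, and intervals and floors cover counting error only. Mitochondrially encoded genes were not analysed here. 1 gene of the set is counted in the totals but not reported here.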

Additional observations from a re-analysis of the deposited data

How the results depend on the processing

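For JL IP against JL input, upper quartile scaling gave 24 lower genes and a median log2 fold change of 0.065, library size alone 25 and 0.055, and 1 fit of all 9 libraries 25 higher genes. The log2 fold change of Atp5g3 turned to -0.22, -0.23 and -0.015 with upper quartile scaling, library size alone and DESeq2. Without a library, that of Cox7a1 lay between -0.0083 (without JL IP replicate 2) and 0.63, and that of Atp5g2 between -0.59 and 0.043 (without JL IP replicate 2). None of these genes was called with TMM factors, and Atp5g3 was called lower under the first 2 of these scalings. For ES IP against JL IP, 1 fit of all 9 libraries gave 16 lower genes, and leaving out a library gave 10 to 22 higher and 4 to 33 lower. Cox7b2, not called, turned to -0.14, -0.33 and -0.30 without ES IP replicate 2, JL IP replicate 2 and JL IP replicate 3, and had a fitted value of 6.05 without JL IP replicate 1, which depends on the prior count since the other JL IPs are at 0. For ES IP against JL input, upper quartile scaling gave 8 higher genes and library size alone 9, and leaving out a library gave 6 to 37 higher and 4 to 21 lower. Without ES IP replicate 2 and replicate 3, genes that were not called turned, among the paralogues Cox6b1 to 0.11 and 0.19, Cox7a1 to 0.04 and 0.15, Cox7a2 to 0.04 and 0.084, and Cox8a to 0.04 and 0.10, and also Ndufa13 and Ndufb3. Without ES IP replicate 1 the paralogues stood at -0.44, -1.20, -0.53 and -0.52. In ES IP replicate 1 these paralogues stood at 1.96, 2.37, 1.94 and 1.94 times the mean of the other ES IPs. The cause was not tested. Replicate numbers were not taken as pairs: the deviations of same-numbered JL IPs and inputs correlated by only 0.10, 0.04 and 0.06. They did share a lane, and each correlated best with its own number. Their Ddx3y counts also matched, at 2298 and 3249 in number 1 and 0 or 1 in the others. Xist matched less closely, with 51 counts in JL IP 1 and 1 in input 1. Whether same-numbered libraries came from the same mice is not stated in the sources used here. With the replicate number as a block the counts were 43 higher and 14 lower, 19 and 14, and 25 and 7 in the 3 comparisons.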
